A study of Mus musculus with 27 samples.

Results

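Pericytes and smooth muscle cells, together called mural cells, wrap the small vessels of the brain. They were sought among 221281 hippocampal nuclei of 27 mice, and 1526 nuclei (0.690%) were taken. A nucleus was taken when it held at least 1 UMI (unique molecular identifier, here 1 counted RNA molecule) of at least 3 of 8 mural genes, namely Pdgfrb, Rgs5, Vtn, Abcc9, Atp13a5, Notch3, Acta2 and Myh11, and at most 1 UMI of the neuronal genes Slc17a7, Gad1 and Gad2 together. The same limit of 1 UMI was set for the oligodendrocyte genes Mog and Mag, for the endothelial genes Flt1 and Cldn5 and for the fibroblast genes Slc6a13 and Bnc2. The nuclei were thus selected on measured UMI counts, so the levels of these 17 genes, and any contrast of the selected nuclei with the rest, are given as description with no test.

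Pericytes sit within the basement membrane of capillaries, touch the endothelium and are needed for the blood-brain barrier. Endothelial PDGF-B recruits them through the receptor PDGFRβ, and Notch3 signalling keeps mural cells mature. Smooth muscle cells ring arterioles and carry the contractile proteins α-smooth muscle actin (Acta2) and smooth muscle myosin (Myh11), while capillary pericytes carry little of either and are marked by the potassium channel subunits Abcc9 and Kcnj8.

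The study crossed P301S mice, which carry a mutant human tau transgene under the mouse prion promoter, with mice lacking Cgas, the sensor of cytosolic DNA that starts type I interferon signalling, and profiled single nuclei of frozen hippocampi sorted by DAPI. Without the transgene there were 5 Cgas+/+ mice (3 male and 2 female), 2 male Cgas+/- mice and 2 male Cgas-/- mice. With it there were 6 P301S Cgas+/+, 6 P301S Cgas+/- and 6 P301S Cgas-/- mice, each group with 3 males and 3 females. All came from the same cross and 1 library was made per mouse. The deletion was present in every cell of the Cgas-/- mice and the transgene was not confined to mural cells.

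Libraries held between 46091490 and 79484316 UMIs, and the selected nuclei between 47794 and 371618 UMIs per mouse, from 16 to 97 nuclei. The matrix headers named Cell Ranger 3.0.2 for 12 libraries, all of males, and 3.1.0 for the 11 libraries of females and 4 of males. This version differed within all P301S groups and in Cgas+/+, whereas the tau-free Cgas+/- and Cgas-/- libraries were all 3.0.2. Xist, the RNA of the inactive X chromosome, had UMIs in the selected nuclei of 11 of 11 females and 0 of 16 males. Cgas was read too rarely to be set against its label. The selected nuclei held 3 UMIs of it in Cgas-/- mice and 7 in P301S Cgas-/- mice, against 3 in Cgas+/+ and 2 in P301S Cgas+/+ mice. Whether the counted reads lie in the deleted part of the gene is not given in the sources used here, and groups are named as the libraries were labelled. A doublet score marked 8.98% of the selected nuclei and 7.42% of all kept nuclei, but 64.5% of the selected nuclei of Cgas+/+ replicate 4 and 87.0% of those of P301S Cgas-/- replicate 3. No 2 libraries held the same barcode among their selected nuclei, and 98 of the selected barcodes also occurred in another library among its other barcodes.

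The label held for the nuclei with at least 4 of the 8 genes and did not hold for most of those with exactly 3. The 1039 nuclei with at least 4 genes (68.1%, between 11 and 65 per mouse) had a median of 6 of 16 mural genes outside the selection rule, and 97.1% had at least 3 of them. Ebf1, a transcription factor of mural cells, was detected in 97.6% of these nuclei, but also in 87.3% of the endothelial nuclei described below. The smooth muscle long noncoding RNA Carmn was detected in 62.8% of these nuclei and the calcium-activated chloride channel Ano1 in 69.5%. The long noncoding RNA Tbx3os1 was detected in 87.4%. Tbx3os1 is not among the 16 and was picked for its ratio in the selected nuclei, so its value is a description only. Among the 487 nuclei with exactly 3 genes the median was 0 of 16, only 23.8% had at least 3, and Ebf1 was detected in 24.4%.

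Those 487 nuclei carried transcripts of astrocytes, the glia that take up glutamate and buffer water and potassium. The glutamate transporter Slc1a2 was detected in 79.3% of them and the water channel Aqp4 in 47.6%, against 21.5% and 2.50% of the nuclei with at least 4 genes. Of the 3-gene nuclei 75.4% held at least 5 UMIs of 6 astrocyte markers, against 5.0% of the others, and their median depth was 4238 against 1603 UMIs. Summed over the 6 markers the level was 19815.7 CPM (counts per 1000000 UMIs of the same nuclei) against 1555.18 CPM, and summed over the 16 further mural genes it was 700.66 against 8265.26 CPM.

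Most of the 3-gene nuclei, 332 of 487, had been taken for the same trio, Pdgfrb, Atp13a5 and Notch3. In the nuclei with this trio alone Ebf1 was detected in 6.93%, Slc1a2 in 94.6% and Gfap, the astrocyte intermediate filament, in 50.9%. The 3351 nuclei just outside the rule, with exactly 2 of the 8 genes, carried Atp13a5 in 78.6% and Pdgfrb in 74.6%, and Ebf1 in 3.1%. Because of this, the contrasts between mice below are given for all 1526 nuclei and the main ones again for the 1039 nuclei with at least 4 genes, the stricter of the thresholds tried.

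**Figure D1:**
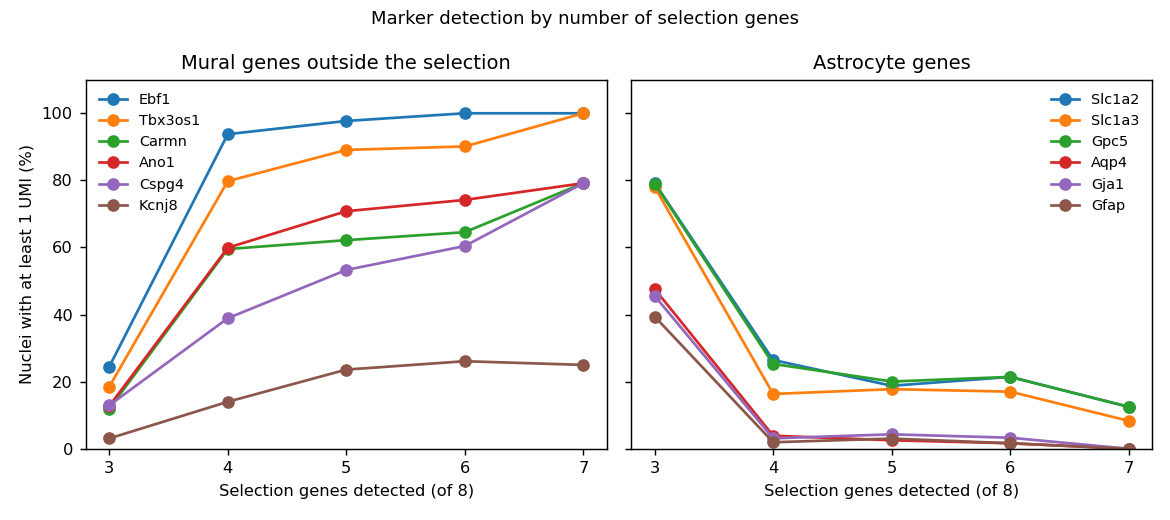
Percent of selected nuclei with at least 1 UMI of 6 mural genes outside the selection rule (left) and of 6 astrocyte markers (right), against the number of the 8 selection genes detected, from 3 to 7. Ebf1 stood at 24.4% in nuclei with 3 genes and at 93.8% in those with 4, while Slc1a2 fell from 79.3% to 26.5%.

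Markers of the other vascular cell types were low, in part by the rule, which capped Flt1 and Cldn5 of the endothelial list and Slc6a13 and Bnc2 of the fibroblast list, and the endothelial and fibroblast nuclei set beside them were chosen on such markers. Over the 8 endothelial markers the selected nuclei summed to 106 CPM, against 15130 CPM in the 1181 endothelial nuclei, and over the 8 fibroblast markers to 132 CPM, against 5097 CPM in the 789 fibroblast nuclei. The 7 neuronal markers summed to 4301 CPM, against 13507 CPM in all other kept nuclei. The neuronal sum in the nuclei with at least 4 genes was 5542 CPM, and each of the 7 neuronal markers was detected in at least 5% of them.

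The genes of the rule are given as the selection left them: at least 1 of the 6 other than Acta2 and Myh11 had to be present in every selected nucleus, and Atp13a5, Pdgfrb and Notch3 are the trio of the 332 nuclei described above. Atp13a5, a P-type ATPase of brain pericytes, had UMIs in 96.7% of the selected nuclei, Pdgfrb in 87.9% and Notch3 in 85.7%. Vtn, which encodes vitronectin, was found in 60.2%, Abcc9 in 56.6% and the G-protein regulator Rgs5 in 47.8%. Myh11 was found in 9.11%, with UMIs in 25 of 27 mice, and Acta2 in 2.36%, with UMIs in 11 of 27 mice. Among nuclei with at least 4 genes, which the rule makes richer in these genes, Vtn was found in 82.8%, Abcc9 in 78.0%, Rgs5 in 66.5% and Myh11 in 10.8%. The low shares of Acta2 and Myh11 are shares of nuclei with a UMI at a median depth of 1777.5 UMIs and do not count smooth muscle cells.

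Outside the rule, the 20 genes with the largest ratio of their level in the selected nuclei to that in all other nuclei were each detected in 27 of 27 mice. Tbx3os1 stood at 852 CPM pooled over the selected nuclei (lowest, median and highest mouse 379, 870 and 1832) and at 1.05 CPM in the rest, a ratio of 810. Carmn stood at 326 CPM (172, 337 and 1020) and a ratio of 498, and Ano1 at 492 CPM (222, 508 and 924) and a ratio of 57.4. No mouse lacked these 3 transcripts, and the spread between the lowest and the highest mouse was several-fold for each.

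The remainder of the 20 included transporters, matrix genes and phospholipase genes. The amino acid transporters Slc38a11 and Slc6a20a had ratios of 334 and 58.7, the organic anion transporter Slc22a8 a ratio of 60.4 and the carrier Slc16a12 a ratio of 58.0. The matrix and basement membrane genes Egflam, Nid1 (nidogen-1) and Lamc3 (a laminin γ chain), and the collagen receptor subunit Itga1, had ratios of 214, 137, 104 and 73.9. Gjc1, which encodes the gap junction protein connexin 45, had a ratio of 120, and Mrvi1, a target of cGMP-dependent kinase in smooth muscle, 96.4. Several were shared with neighbouring vascular cells: Ebf1 had a ratio of 122 and stood at 2175 CPM in endothelial nuclei, against 1835 CPM in all selected nuclei and 3478 CPM in those with at least 4 genes, and Slc6a20a stood at 1660 CPM in fibroblast nuclei against 723 CPM in all selected nuclei and 1341 CPM in those with at least 4 genes. Slc22a8 stood at 121 CPM in all selected nuclei, 246 CPM in endothelial nuclei and 226 CPM in fibroblast nuclei. In fibroblast nuclei Mrvi1 stood at 229 CPM and Lamc3 at 191 CPM, against 160 and 166 CPM in all selected nuclei.

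**Figure D2:**
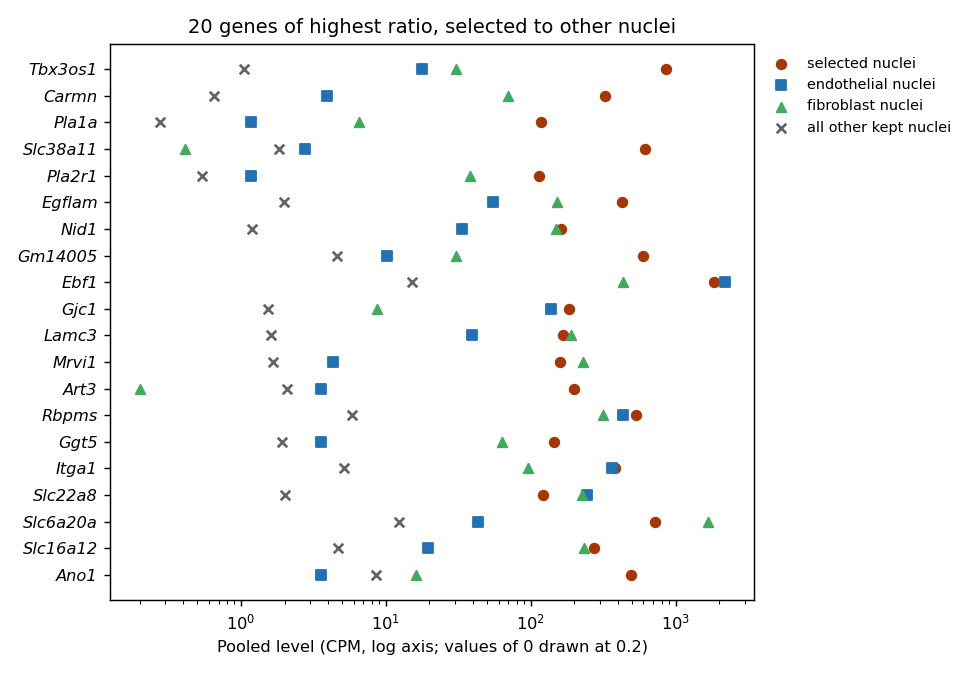
Pooled CPM (log axis) of the 20 leading genes in the selected nuclei, endothelial nuclei, fibroblast nuclei and all other kept nuclei, each point 1 gene in 1 class of nuclei. Tbx3os1 lies at 852 CPM in the selected nuclei and 1.05 CPM in the other nuclei, and Ebf1 lies at 1835 CPM in the selected nuclei and 2175 CPM in the endothelial nuclei, below the 3478 CPM of the nuclei with at least 4 genes, which are not drawn apart.

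Gene levels were then read in the 1039 nuclei with at least 4 genes. Levels below are CPM pooled over mice, and the lowest, median and highest mouse follow in brackets. These nuclei also held 5542 CPM of the 7 neuronal markers, against 13507 CPM in all other kept nuclei. Most levels below are given without that of other nuclei, so they do not show how much of the RNA came from other cells. The 16 further mural genes were each detected, 15 of them in at least 5% of these nuclei. Ebf1 stood at 3478 CPM [1561, 3677, 5772], Slc6a20a at 1341 CPM [621, 1406, 2523] and the proteoglycan Cspg4 (NG2) at 444 CPM [210, 482, 830]. Kcnj8, the pore of the ATP-sensitive potassium channel in pericytes, stood at 146 CPM [21.7, 153, 314] and was detected in 22.1% of the nuclei. The purine receptor P2ry14 stood at 293 CPM [144, 320, 617]. Each of these 5 was detected in every mouse.

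Of 20 contractile genes, 9 were detected in at least 5% of these nuclei. Cald1, the actin-binding regulator caldesmon, stood at 2140 CPM [1230, 2217, 3063] and myosin light chain kinase, Mylk, at 306 CPM [180, 275, 678]. Both were present in 27 mice. Smooth muscle genes ranged from detected in a minority of nuclei to absent. Myl9, a myosin regulatory light chain, was found in 14.7% of the nuclei and 27 mice, Myh11 in 10.8% and 25 mice and smoothelin (Smtn) in 7.12% and 25 mice. Tagln (transgelin) had 55 UMIs, in 7 mice, the calponin gene Cnn1 had 1 UMI and Actg2 had none.

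Of 28 genes of vascular tone, 16 were detected in at least 5% of the nuclei and 1 had no UMI. Prkg1, the cGMP-dependent kinase that relaxes smooth muscle, stood at 4431 CPM [2951, 4644, 6777] and was detected in 98.8% of the nuclei. Gucy1a2 and Gucy1b1, which encode subunits of the nitric oxide receptor, stood at 1115 and 552 CPM, and the cGMP phosphodiesterase Pde5a at 504 CPM [245, 530, 769]. The cyclic nucleotide phosphodiesterase Pde8b stood at 4253 CPM [2143, 4445, 6522]. The endothelin receptors differed in their detection, with Ednra in 48.4% of the nuclei and 27 mice and Ednrb in 1.92% and 10 mice.

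Calcium entry and release genes followed. Cacna1c, the pore of the L-type calcium channel, stood at 2335 CPM [1566, 2284, 3727]. The inositol trisphosphate receptors Itpr1 and Itpr2 stood at 974 and 809 CPM. Among transporters, Slc38a11 stood at 1162 CPM [740, 1223, 2368] and the sodium-potassium-chloride cotransporter Slc12a2 at 622 CPM [290, 636, 1653]. Of 28 channel genes 24, and of 23 transporter genes 17, were detected in at least 5% of the nuclei.

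Basement membrane genes, 21 of 31 detected in at least 5% of the nuclei, were led by laminin chains. Lama2 stood at 1333 CPM [743, 1433, 2010], Lamc1 at 770 CPM [476, 798, 1280] and Lama4 at 357 CPM [128, 340, 680]. Type IV collagen was lower in detection, with Col4a1 in 20.3% and Col4a2 in 18.6% of the nuclei. Itga1 was found in 66.0%.

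In Notch signalling the coactivator Maml2 stood at 1616 CPM [1118, 1621, 2433], and beside Notch3 the receptor Notch1 stood at 204 CPM [93.8, 202, 491]. The ligand Jag1 stood at 91.0 CPM and the targets Heyl and Hey2 at 121 and 77.8 CPM. Heyl was at 10.8 CPM in the 3-gene nuclei, whereas Maml2 was at 1872 CPM there, so that detection of the pathway's coactivator did not separate the sets and that of its target did. In PDGF signalling the phosphoinositide 3-kinase subunit Pik3r1 stood at 346 CPM and the ligand Pdgfa at 19.1 CPM. In TGF-β and BMP signalling the ligand Bmp5 stood at 210 CPM [75.3, 195, 592], the coreceptor Tgfbr3 at 176 CPM and endoglin (Eng) at 132 CPM.

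Among transcription factors Mef2c, a regulator of muscle and neuronal genes, stood at 599 CPM [236, 596, 948], the hypoxia factor Epas1 at 336 CPM and Nr2f2 at 333 CPM. Tbx2 stood at 140 CPM [69.9, 139, 402]. Interferon genes were thinly detected, 14 of 67 in at least 5% of the nuclei and 5 with no UMI. The RNA editing enzyme Adar stood at 70.5 CPM, the antiviral factor Zc3hav1 at 80.7 CPM and the signal transducer Stat2 at 46.5 CPM. Of 10 cGAS-STING genes only 3 were detected in at least 5% of the nuclei, the kinase Tbk1 at 79.3 CPM, the nucleotide hydrolase Samhd1 at 53.8 CPM and the transcription factor Irf3 at 43.6 CPM. Cgas had 22 UMIs, in 14 mice, and Sting1 had 4 UMIs, in 4 mice, too few for a comparison of groups.

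A smaller set of selected nuclei, 151 of 1526 (9.90%, between 0 and 22 per mouse), held at least 1 UMI of Acta2 or Myh11. Since these genes are in the rule, the comparison with the 1375 other nuclei is a description. Within the nuclei with at least 4 genes there were 117 with and 922 without, at median depths of 1711 and 1598 UMIs. The matrix gene Thsd4 stood at 393 CPM with and 32.2 CPM without, the cadherin-linked Ctnna3 at 999 and 119 CPM, and the calcineurin inhibitor Rcan2 at 344 and 43.9 CPM. Filamin A (Flna), which crosslinks actin, stood at 221 and 48.4 CPM, and the phosphodiesterase Pde3a at 917 and 257 CPM. Tagln had 54 UMIs in the 117 nuclei and 1 UMI in the 922, and the smooth muscle coactivator Myocd had 15 and 6 UMIs. In the other direction Kcnj8, which is not in the rule, stood at 153 CPM without and 90.1 CPM with. Vtn and Abcc9 were also higher without, by 1.80 and 1.40 times, but a nucleus without Acta2 and Myh11 had to hold at least 4 of the other 6 rule genes, so the rule favours that direction. Transgelin was thus read almost wholly in the nuclei with Acta2 or Myh11, and the pericyte genes were read in both.

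Over all selected nuclei, Thsd4 was higher with Acta2 or Myh11 in 6 of the 12 mice that had at least 5 such nuclei, Filip1l (filamin A interacting protein 1-like) in 9 of 12, Myl9 (myosin regulatory light chain) in 8 of 12 and Pde3a in 10 of 12. These counts show that the pooled ratios did not hold in every mouse.

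The promoters of the 10 genes with the largest ratio toward Acta2 or Myh11 over all 1526 selected nuclei were searched because the factor SRF binds the CArG box in promoters of contractile genes. The window was the 250 bases before each annotated RefSeq start in GRCm38.p6, and both strands were read. The CArG box was present in 3 of 19 promoters, from 3 of the 9 genes with a promoter in the table, against 1.47% of all 32851 promoters. It was in 0 of 11 promoters of the 10 genes higher without Acta2 or Myh11 and in 0 of 18 promoters of the 20 leading genes, of which 13 had a promoter in the table. Among nuclei with at least 4 genes the 10 genes of largest ratio were partly others, and of the 3 with a CArG box only Filip1l was still in that list. The genes higher without also changed. Fgfr3, first of those 10 over all selected nuclei, stood in the stricter nuclei at 40.9 CPM with and 15.6 CPM without. Phf12, last of the 10, stood there at 65.5 and 131 CPM. The 0 of 11 is therefore not read as a value for pericyte promoters. A match describes letters in the window and shows no binding. The 3 promoters are printed 5′ to 3′ on the gene's strand with the CArG box in capitals, which begins 161 bases before the start of Myl9 (chr2:156775214-156775463, plus strand), 62 before that of Filip1l (chr16:57548992-57549241, plus strand) and 115 before that of Filip1 (chr9:79977883-79978132, minus strand).
Myl9: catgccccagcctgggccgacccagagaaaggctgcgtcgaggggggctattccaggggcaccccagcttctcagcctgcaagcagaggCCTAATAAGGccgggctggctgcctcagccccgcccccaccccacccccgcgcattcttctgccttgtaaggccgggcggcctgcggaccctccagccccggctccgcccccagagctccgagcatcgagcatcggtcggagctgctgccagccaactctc
Filip1l: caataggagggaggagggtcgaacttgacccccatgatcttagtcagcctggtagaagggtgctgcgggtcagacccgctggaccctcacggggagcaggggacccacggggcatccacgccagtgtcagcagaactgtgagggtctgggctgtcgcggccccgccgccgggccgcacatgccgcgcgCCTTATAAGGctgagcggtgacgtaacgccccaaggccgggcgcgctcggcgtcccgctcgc
Filip1: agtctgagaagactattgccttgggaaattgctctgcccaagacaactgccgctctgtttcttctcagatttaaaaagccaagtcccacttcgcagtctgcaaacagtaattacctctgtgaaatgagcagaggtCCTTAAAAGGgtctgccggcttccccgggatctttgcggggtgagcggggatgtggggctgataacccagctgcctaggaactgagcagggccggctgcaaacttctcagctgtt

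The share of nuclei taken was then compared between groups, over mice. It was 0.903, 0.481, 0.693, 0.464 and 0.741% in the 5 Cgas+/+ mice, 0.874 and 1.18% in the Cgas+/- mice and 1.23 and 0.819% in the Cgas-/- mice. The lowest, median and highest mouse had 0.229, 0.659 and 0.954% in P301S Cgas+/+, 0.363, 0.615 and 0.728% in P301S Cgas+/- and 0.370, 0.685 and 1.34% in P301S Cgas-/-. All groups with the transgene overlapped each other and Cgas+/+. The P301S Cgas+/- mice all lay below the Cgas+/- and Cgas-/- mice, groups of 2 males each.

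No contrast of the share passed an exact two-sided permutation test, with Benjamini-Hochberg adjustment over 4 contrasts. The 18 P301S mice had 0.635% ± 0.272 (SD) and the 9 tau-free mice 0.820% ± 0.266, a difference of -0.185 percentage points with exact permutation p = 0.111 (adjusted 0.443). P301S Cgas+/+ and Cgas+/+ differed by -0.0645 points (exact permutation p = 0.675), P301S Cgas-/- and P301S Cgas+/+ by 0.149 points (exact permutation p = 0.446) and P301S Cgas+/- and P301S Cgas+/+ by -0.0192 points (exact permutation p = 0.896).

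Counting only nuclei with at least 4 genes, the P301S mice had 0.421% ± 0.186 and the tau-free mice 0.575% ± 0.155, a difference of -0.154 points with exact permutation p = 0.0436 (adjusted 0.174). The share also differed with sex and version, and these moved with genotype: 9 of 18 P301S mice but 2 of 9 tau-free mice were female. Over all selected nuclei males had 0.826% ± 0.250 (SD, n = 16) and females 0.509% ± 0.208 (SD, n = 11). The females were all of version 3.1.0. Males of that version had 0.709% ± 0.024 (SD, n = 4) and males of 3.0.2 had 0.864% ± 0.281 (SD, n = 12). Within the version 3.0.2 libraries, all male, the 4-gene share differed by -0.0749 points (6 against 6 mice, exact permutation p = 0.448), and within 3.1.0 by -0.116 points (12 against 3 mice, exact permutation p = 0.259). The Cgas genotypes were unequal too, with 5, 2 and 2 mice without the transgene and 6 of each with it. The permutation test had no term for them. Without the transgene the 4-gene share averaged 0.481% in Cgas+/+, 0.745% in Cgas+/- and 0.642% in Cgas-/- mice. With it the averages were 0.387, 0.367 and 0.510%. The part of sex, version and Cgas genotype in the pooled difference was not tested beyond these values.

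Relative to endothelial nuclei no contrast passed the test. The log2 ratio of selected to endothelial nuclei differed by -0.06 between P301S and tau-free mice (exact permutation p = 0.763), by 0.14 between P301S Cgas+/+ and Cgas+/+ (exact permutation p = 0.684), by 0.07 between P301S Cgas-/- and P301S Cgas+/+ (exact permutation p = 0.820) and by -0.34 between P301S Cgas+/- and P301S Cgas+/+ (exact permutation p = 0.0952, adjusted 0.381). The direction was not stable: the difference between P301S Cgas+/+ and Cgas+/+ was -0.13 with at least 4 genes and -0.53 without doublet-marked nuclei, and without those nuclei it was -0.47 for P301S Cgas-/- and 0.17 for P301S Cgas+/-.

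**Figure D3:**
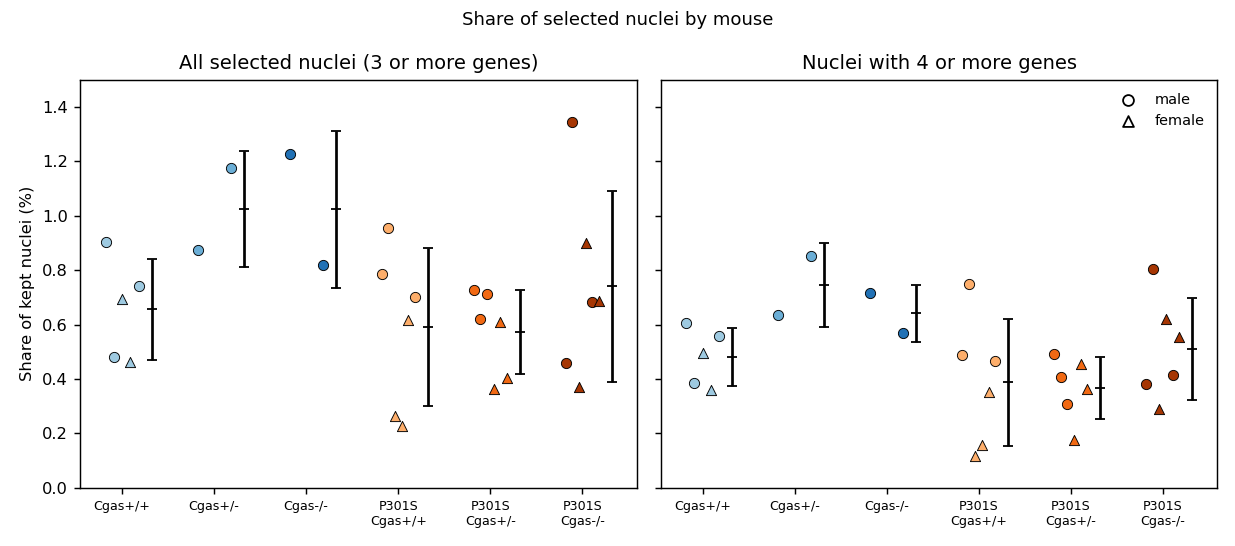
Selected nuclei as percent of kept nuclei per mouse in the 6 groups, for all selected nuclei and for those with at least 4 genes, with circles for males, triangles for females and bars for mean ± SD. The groups overlap, from 0.229% to 1.34% over all selected nuclei, and males average 0.826% against 0.509% in females.

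Gene levels were compared on UMIs summed per mouse. In all selected nuclei 30 of 4485 genes (0.669%) passed the adjusted threshold of 0.05 between the 18 P301S and 9 tau-free mice in edgeR's quasi-likelihood test, 22 higher (0.491%) and 8 lower (0.178%) with the transgene. Those higher included Stat3, the transcription factor of cytokine signalling, the astrocyte genes Gfap and Aqp4, the interferon genes Trim30a, Herc6, Ddx60 and Rnf213, and Csf1, the growth factor of microglia. In the nuclei with at least 4 genes 0 of 2451 genes (0%) passed, with 128 at an unadjusted p under 0.05, and DESeq2 called 1. The count of 30 rested on single mice, with 0 to 145 calls when 1 was left out (0 for Cgas+/+ replicate 1, Cgas-/- replicate 2, P301S Cgas+/+ replicate 1 or P301S Cgas-/- replicate 2, and 145 for P301S Cgas+/- replicate 6), and it was 6 with version as a term. With that term the log2 difference was 3.81 for Gfap (3.82 without it), 0.82 for Aff1 (0.85) and 2.02 for Csf1 (2.15). Each of these 3 then had adjusted p = 0.0519 by edgeR. Of the genes named above, Stat3 (1.08, adjusted p = 0.0244, edgeR), Trim30a, Herc6 and Ddx60 still passed with that term. The nuclei with exactly 3 genes alone, in 21 mice with at least 10 of them, gave 215 of 2961 genes (7.26%), 88 higher and 127 lower, a setting added after seeing the data. Astrocyte markers moved with genotype in the wider set: their summed level averaged 11591 CPM in P301S and 7732 CPM in tau-free mice (ranges 1631 to 15803 and 4270 to 14127), whereas in the nuclei with at least 4 genes it averaged 1368 and 1386 CPM. Neuronal markers moved the other way in the wider set, with a summed level of 3753 ± 1978 CPM (SD, n = 18) in P301S and 5635 ± 1905 CPM (SD, n = 9) in tau-free mice. Among nuclei with at least 4 genes the 6 tested of the 7 neuronal markers had a median log2 difference of -0.34, with 0 called. The part of either sum in the calls was not tested.

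Stat3 stood at a lowest, median and highest value of 153, 215 and 417 CPM in P301S and 37.6, 127 and 192 CPM in tau-free mice over all selected nuclei. The fitted difference was 1.09 ± 0.20 (log2, SE; adjusted p = 0.0146 by edgeR's quasi-likelihood test with Benjamini-Hochberg adjustment). In the nuclei with at least 4 genes Stat3 stood at 88.7, 168 and 260 CPM against 0, 141 and 173 CPM, with a difference of 0.59 ± 0.25 (adjusted p = 0.884 by the same edgeR test). The medians kept their order in the stricter set while the groups overlapped, and within versions the exact permutation p there was 0.128 (3.0.2) and 0.136 (3.1.0). Over all selected nuclei, where Stat3 was picked, the exact permutation p within versions was 0.00216 (3.0.2) and 0.0176 (3.1.0).

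Gfap stood at 0, 219 and 1266 CPM in P301S and 6.58, 15.9 and 60.8 CPM in tau-free mice, a difference of 3.82 ± 0.76 (adjusted p = 0.0248, edgeR). With 1190 UMIs in P301S and 40 in tau-free mice, it passed the filter on low counts mostly through the P301S mice, and nothing more is read from this p. Pooled over the 3-gene nuclei Gfap was at 742 CPM in P301S and 58.4 CPM in tau-free mice, and over the nuclei with at least 4 genes at 30.7 and 7.75 CPM, where it was too low to be tested. The RNA helicase Ddx60 was at 130 against 12 CPM in the former and 11 against 7.75 CPM in the latter, and the E3 ligase gene Trim30a at 85.1 against 6.88 CPM and 12.6 against 5.16 CPM. Most UMIs of these 3 genes thus came from the 3-gene nuclei.

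Aff1, a transcription elongation factor, differed by 0.85 ± 0.18 over all selected nuclei (adjusted p = 0.0248, edgeR) and by 0.72 ± 0.21 in those with at least 4 genes (adjusted p = 0.724, edgeR). In the latter it stood at 130, 213 and 361 CPM in P301S and 82.5, 152 and 275 CPM in tau-free mice. Its difference was thus of like size in both sets and passed the threshold in the wider one only, and within versions the exact permutation p in the stricter set was 0.0931 (3.0.2) and 0.0132 (3.1.0). Stat3 and Aff1 were picked from these same mice, so their values within versions are a description and no further test. The remaining genes of smallest p were Herc6 (1.63 ± 0.34), Sbno2 (2.34 ± 0.48), Fam107a (1.37 ± 0.29), Csf1 (2.15 ± 0.46) and Gm20754 (-1.31 ± 0.27), each with adjusted p = 0.0248 by edgeR. Of these 5, only Gm20754 had enough UMIs to be tested in the nuclei with at least 4 genes, where it did not pass (-0.74 ± 0.34, adjusted p = 0.884, edgeR). Over all selected nuclei Herc6 had 230 UMIs in P301S and 38 in tau-free mice, Sbno2 417 and 40, Fam107a 260 and 49, and Csf1 161 and 17. They thus passed the filter on low counts mostly through the P301S mice, and nothing more is read from their p.

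**Figure D4:**
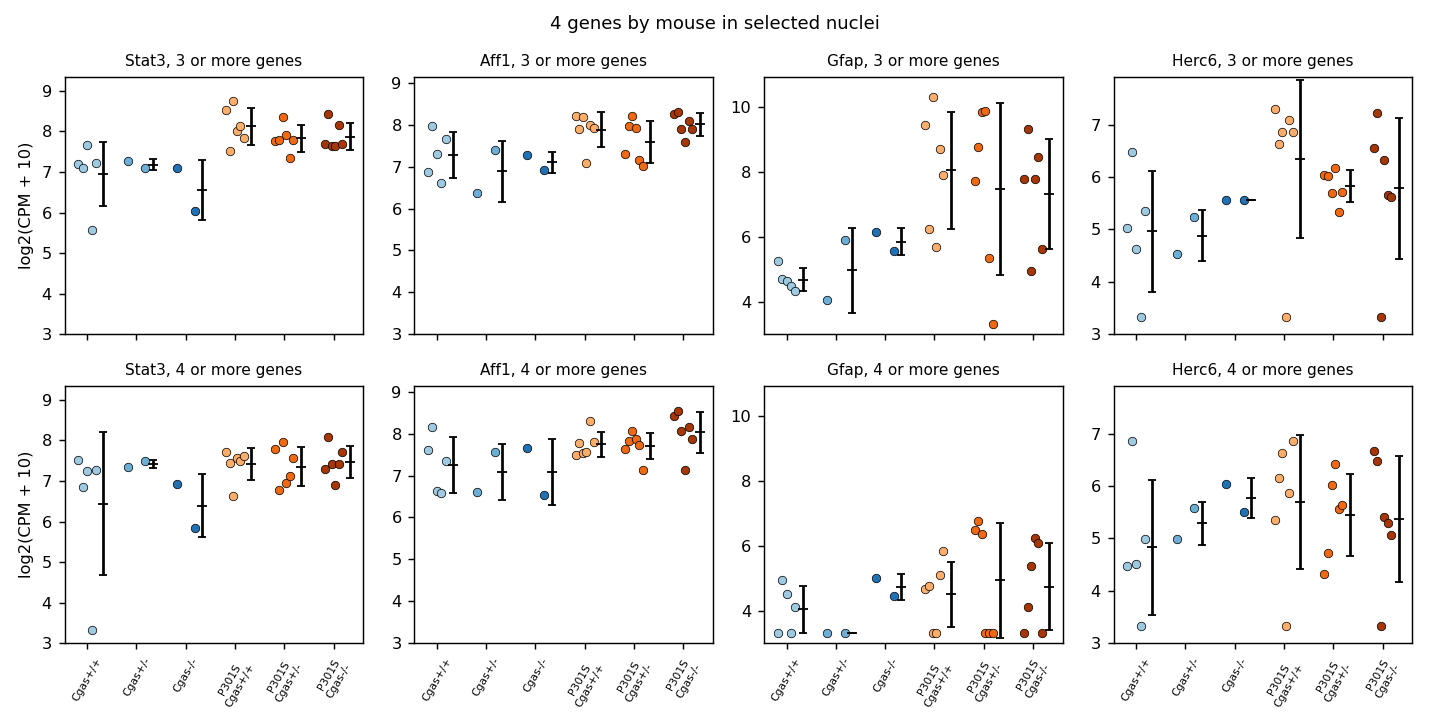
Stat3, Aff1, Gfap and Herc6 as log2(CPM + 10) per mouse, tau-free against P301S, in all selected nuclei (top) and in those with at least 4 of the 8 genes (bottom), with bars for mean ± SD. Gfap reaches 1266 CPM in P301S mice in the top panels and 99.3 CPM in the bottom ones.

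List by list, the mural genes did not pass in either set of nuclei. Of 67 interferon genes 10 could be tested over all selected nuclei, and 4 were called higher in P301S, where 22 of all 4485 genes (0.491%) were called higher. Some of the 10 passed the filter on low counts mostly through the P301S mice (Trim30a had 148 UMIs in P301S and 8 in tau-free mice, Ddx60 215 and 13), so nothing is read from their common direction. The astrocyte sum moved with genotype in the same nuclei (11591 against 7732 CPM), and its part in these calls was not tested. Among nuclei with at least 4 genes none of the 67 had enough UMIs to be tested. Of 28 inflammation and adhesion genes 8 were tested and 1 called, Stat3. The oncostatin M receptor Osmr was not called (1.47, adjusted p = 0.0660, edgeR), and in the nuclei with at least 4 genes its difference was 0.93 ± 0.30 (adjusted p = 0.724, edgeR), with an exact permutation p within versions of 0.0519 (3.0.2) and 0.101 (3.1.0). Of 24 stress genes 4 were tested and 1 called, Mt1. Pooled over the 3-gene nuclei Mt1 was at 168 CPM in P301S and 60.2 CPM in tau-free mice, and over the nuclei with at least 4 genes at 14.2 and 25.8 CPM, from 18 and 20 UMIs, where it was not tested.

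The 13 tested genes among the 16 further mural markers had a median log2 difference of -0.28 over all selected nuclei and 0.13 in those with at least 4 genes, beside 0.0037 and 0.013 over all genes tested, and 0 were called in each. Tone genes had medians of -0.29 and 0.07 (17 and 14 tested) and channel genes -0.37 and -0.06 (21 and 19 tested), with 0 called. The contractile, PDGF, Notch, TGF-β and BMP, basement membrane, transporter, transcription factor, angiogenesis, cGAS-STING and small vessel disease lists had 0 called over all selected nuclei as well. The negative medians of the mural lists in the wider set stood beside the higher astrocyte level of P301S mice there, and their dependence on it was not tested.

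Between P301S Cgas+/+ and Cgas+/+ mice, 0 of 3946 genes (0%) passed edgeR's test, with 482 at an unadjusted p under 0.05, 13 called by DESeq2 and 97 by edgeR on these groups alone. The gene of smallest p was Filip1l, at 141, 319, 244, 138 and 363 CPM in the 5 Cgas+/+ mice and at a lowest, median and highest of 37.1, 83.4 and 106 CPM in P301S Cgas+/+. The groups did not overlap, and the difference was -1.63 ± 0.32 (adjusted p = 0.129, edgeR). Among nuclei with at least 4 genes it was -0.97 ± 0.35 (adjusted p = 0.598, edgeR), at 77.2 to 325 CPM against 171 to 426 CPM. The next 4 genes were Cyp7b1 (0.98), Itgb8 (1.95), Hs6st3 (-2.48) and Efr3b (1.78), none of which passed. Itgb8 and Efr3b had too few UMIs to be tested in the nuclei with at least 4 genes, where Cyp7b1 and Hs6st3 had differences of 0.87 and -1.90 that did not pass. Over all selected nuclei the summed astrocyte level was 9784 to 14814 CPM in P301S Cgas+/+ and 4270 to 9253 CPM in Cgas+/+ mice, and in those with at least 4 genes it averaged 1055 and 1132 CPM. The summed neuronal level ran the other way over all selected nuclei, at 2016 to 5089 CPM in P301S Cgas+/+ and 3202 to 7721 CPM in Cgas+/+ mice. The part of either in the differences was not tested.

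Among nuclei with at least 4 genes the smallest p of this contrast belonged to Col8a1, a short-chain collagen of vessel walls, named after its values were seen. It stood at 148, 106, 77.0, 102 and 144 CPM in Cgas+/+ and at 269, 355 and 457 CPM (lowest, median and highest) in P301S Cgas+/+. These groups did not overlap, but 0% of genes were called and the adjusted p was 0.101 (1.52 ± 0.32, edgeR), and over all selected nuclei the difference was 0.82 ± 0.35 (adjusted p = 0.345, edgeR). Tau-free mice with other Cgas genotypes had 318 and 208 CPM (Cgas+/-) and 258 and 247 CPM (Cgas-/-), above every Cgas+/+ mouse, and P301S Cgas+/- mice ranged from 37.6 to 383 CPM.

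Between P301S Cgas-/- and P301S Cgas+/+ mice 0 of 3946 genes (0%) passed, with 107 at an unadjusted p under 0.05 and 0 called by DESeq2. Shisa6, Tshz2, Gm28928 and Csnk1e were among the genes of smallest p over all selected nuclei, with differences of -1.82, 2.08, 2.15 and 0.79 that did not pass. Tshz2, a zinc finger transcription factor gene, came nearest in the nuclei with at least 4 genes (2.26 ± 0.43, adjusted p = 0.0519, edgeR). It stood there at 160, 573 and 775 CPM in P301S Cgas-/- and at 78.2, 114 and 179 CPM in P301S Cgas+/+. The tau-free mice ran the other way, with 56.1 and 47.1 CPM in Cgas-/- and 494, 424, 180, 85.3 and 310 CPM in Cgas+/+. Over all selected nuclei the summed neuronal level averaged 4063 CPM (3164 to 4964) in P301S Cgas-/- mice. In P301S Cgas+/+ mice it averaged 3224 CPM (2016 to 5089). Its part in the Tshz2 difference was not tested.

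Between P301S Cgas+/- and P301S Cgas+/+ mice 0 of 3946 genes (0%) passed, with 107 at an unadjusted p under 0.05 and 0 called by DESeq2. Ahcyl2 (-0.61), Akap6 (1.01), Klhl29 (0.65), Supt16 (0.93) and Arhgef40 (-0.75) had the smallest p, with adjusted p = 0.999 by edgeR.

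Sex gave 8 called genes of 4485 (0.178%) over all selected nuclei, of which Xist, Uty, Eif2s3y and Ddx3y lie on the sex chromosomes. The other 4 were Galnt17, Atp2a3 and Rhoj, higher in females, and Gm20388, lower. The doublet score marked on average 22% ± 29.8 (SD, n = 11) of the selected nuclei in females and 5.69% ± 4.25 (SD, n = 16) in males. The medians were 7.95 and 5.32%. The highest females were P301S Cgas-/- replicate 3 (87.0%), Cgas+/+ replicate 4 (64.5%) and P301S Cgas+/- replicate 4 (44.0%). Without the marked nuclei, in 10 females and 16 males, only the 4 genes of the sex chromosomes were called, and the others had differences of 1.06 (Galnt17, adjusted p = 0.252), 0.98 (Atp2a3, adjusted p = 0.313), 0.89 (Rhoj, adjusted p = 0.278) and -0.73 (Gm20388, adjusted p = 0.0729) by edgeR. Without the 3 mice of unusual depth or doublet score Galnt17 (1.36, adjusted p = 0.000894), Atp2a3 (1.13, adjusted p = 0.0159) and Rhoj (0.97, adjusted p = 0.0371) were called by edgeR and Gm20388 was not (-0.59, adjusted p = 0.232). In the nuclei with at least 4 genes 7 of 2451 genes (0.286%) were called, with Galnt17, Rhoj and Gm20388 among them. In these nuclei the summed astrocyte level was 843 ± 574 CPM (SD, n = 11) in females and 1739 ± 1286 CPM (SD, n = 16) in males, and its part in the sex calls was not tested.

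Galnt17, an enzyme gene of the family that starts O-linked glycosylation, stood in the nuclei with at least 4 genes at 740, 1277 and 1980 CPM (lowest, median and highest) in the 11 females and at 296, 473 and 710 CPM in the 12 males of version 3.0.2. The 4 males of version 3.1.0 had 577, 375, 511 and 714 CPM. Every female lay above every male. The difference was 1.43 ± 0.16 (log2, SE; adjusted p = 1.65e-07, edgeR) there and 1.20 ± 0.20 (adjusted p = 0.00169, edgeR) over all selected nuclei, and with version as a further term it was 1.20 with adjusted p = 0.232.

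Since version 3.0.2 held males alone, the 11 females and 4 males of version 3.1.0 were also set side by side. Galnt17, Rhoj, Atp2a3 and Gm20388 were picked from a contrast that held these same mice. Their values within version 3.1.0, here and below, are therefore a description and no further test. Galnt17 differed by 1.28 on the log2(CPM + 10) scale in the nuclei with at least 4 genes (exact permutation p = 0.00147, the smallest this design allows). In all other nuclei of the same mice Galnt17 stood at 446, 802 and 1406 CPM in females and 658, 705 and 833 CPM (lowest, median and highest) in males, a difference of 0.18 (exact permutation p = 0.429), and in endothelial nuclei the difference was -0.55 (exact permutation p = 0.377). Galnt17 was singled out for its difference in the mural nuclei, so the contrast of these values with those of the mural nuclei is a description. For Rhoj the differences were -0.57 in all other nuclei and 0.12 in endothelial nuclei.

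Rhoj, a small GTPase gene of vascular cells, stood at 165, 273 and 536 CPM in females and 82.5, 99.9 and 148 CPM in males of version 3.0.2. The 4 males of version 3.1.0 had 108, 82.1, 365 and 160 CPM. These overlapped, through 1 male, and the difference was 1.06 with adjusted p = 0.00599 by edgeR (exact permutation p = 0.0469 within version 3.1.0). Atp2a3, an endoplasmic calcium pump gene, differed by 0.95 (adjusted p = 0.0552, edgeR) and Gm20388 by -0.79 (adjusted p = 0.00439, edgeR), with exact permutation p = 0.0322 and p = 0.0103 within version 3.1.0. With version as a term over all selected nuclei the differences were 0.93 for Rhoj and 1.01 for Atp2a3 (adjusted p = 0.399 for each, edgeR), near the 0.92 and 1.09 without it, while that of Gm20388 went from -0.64 to -0.29 (adjusted p = 1.0, edgeR). A test of whether the P301S difference depended on sex called 0 of 5690 genes in edgeR, with 208 at an unadjusted p under 0.05.

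**Figure D5:**
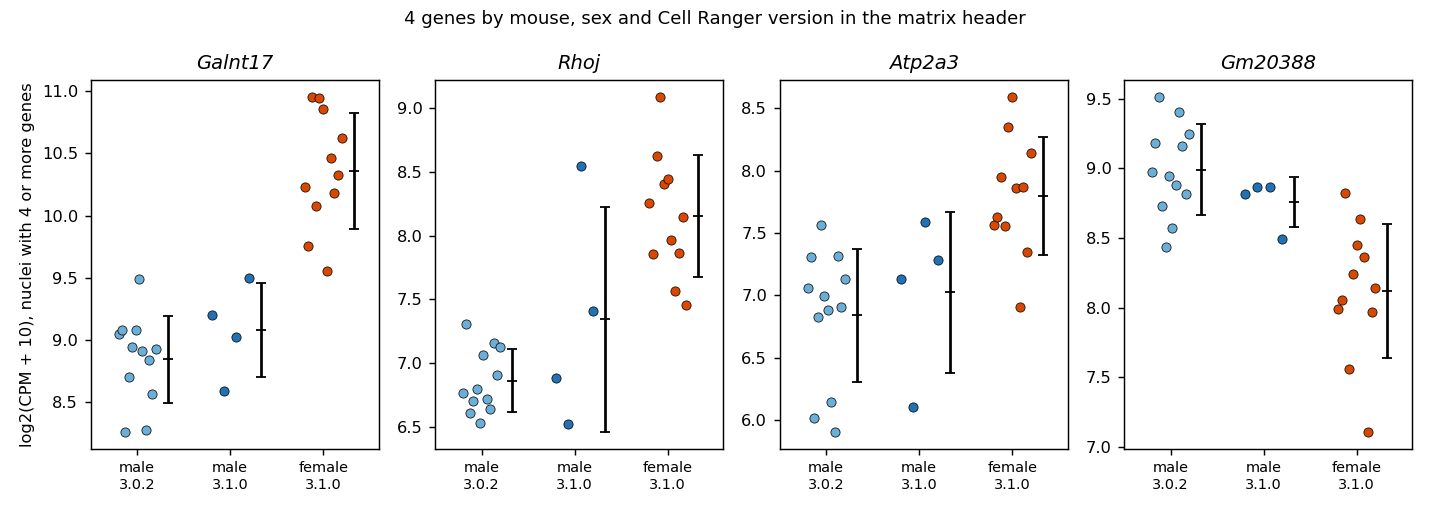
Galnt17, Rhoj, Atp2a3 and Gm20388 as log2(CPM + 10) per mouse in the nuclei with at least 4 of the 8 genes, for males of version 3.0.2, males of version 3.1.0 and females of version 3.1.0, with bars for mean ± SD. The 11 females lie above the 16 males for Galnt17, while the other 3 genes overlap.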

How the data were processed

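Nuclei of frozen hippocampi were stained with DAPI, sorted, and sequenced with 3′ version 3 chemistry. The authors deposited raw UMI counts per gene and barcode, made with Cell Ranger on mm10 with reads of unspliced RNA included; the labels name 3.1.0 and the matrix headers 3.0.2 or 3.1.0. The study's limits of 200 to 4000 genes and 5% mitochondrial UMIs left 221281 of 241938 barcodes. The study removed doublets with DoubletFinder; here a Scrublet score (scanpy 1.11.5) was only an alternative. Members, gene lists and tests were chosen with earlier results of these data known.

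Counts of selected nuclei were summed per mouse (at least 10 nuclei) and tested with edgeR 4.0.16 (R 4.3.3; TMM, filterByExpr, robust quasi-likelihood, Benjamini-Hochberg). Single contrasts used 23 mice of 4 groups with sex as a term; P301S and sex used 27 mice with transgene, Cgas copies and sex. DESeq2 1.42.0 was an alternative. The scripts were tested on simulated data. Shares were compared by exact permutation over mice, which are separate animals. CPM divides a count by the UMIs of the same nuclei and was used on the log2(CPM + 10) scale for values per mouse. Depth per mouse was low (47794 to 371618 UMIs), so rare transcripts could not be compared. The genes named were the rule genes, the further mural markers, the 20 leading genes, the 10 called genes of smallest p (or 5 uncalled) per contrast, examples from each list, and genes singled out as such. The study tested nuclei as units; here mice were the units. A few genes that this rule named are not reported here.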

Additional observations from a re-analysis of the deposited data

Results flagged for a closer look

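Over 25 measures, 100 tests of 1 measure in 1 group of mice were made. In 10 of them a single mouse lay far from the others of its group by Dixon's test at the 95% level. Chance alone passes this in about 1 of 20 tests, and some mice were flagged for more than 1 measure. P301S Cgas-/- replicate 1 had a log2 ratio of selected to endothelial nuclei of -0.549, against a group median of 0.632. P301S Cgas+/+ replicate 3 had a median of 4818 UMIs per selected nucleus, against a group median of 1839.75. The doublet score marked 64.5% of the selected nuclei of Cgas+/+ replicate 4 (group median 11.3%) and 87.0% of those of P301S Cgas-/- replicate 3 (group median 4.82%).

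On the log2(CPM + 10) scale, Stat3 stood at 5.57 in Cgas+/+ replicate 4. Aff1 stood at 7.08 and Herc6 at 3.32 in P301S Cgas+/+ replicate 4, the latter with no UMI. Gm20754 stood at 7.85 and Fam107a at 4.75 in P301S Cgas+/- replicate 6, and Cgas at 4.40 in P301S Cgas+/+ replicate 2. That mouse alone in its group held UMIs of Cgas, and the others stood at 3.32, the value of no UMI. This flag therefore rests on a gene near its floor.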

How the results depend on the processing

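No paired analysis was possible because replicate numbers were given in accession order and pair no mice. Between P301S and tau-free mice the 30 calls became 68 with DESeq2, 399 without the low-count filter, 19 over mice with at least 20 nuclei, 6 with version as a term (added after seeing the data, as were the settings by version and DESeq2 on the stricter nuclei), 0 in nuclei with at least 4 genes (1 with DESeq2), 0 without nuclei holding UMIs of other cell types, 0 without doublet-marked nuclei and 6 without the 3 mice that stood apart. On nuclei with exactly 3 genes alone there were 215 calls for P301S, 2 for P301S Cgas+/+ against Cgas+/+ and 3 for sex. Leaving out 1 mouse gave 0 to 145 calls, 0 when Cgas+/+ replicate 1, Cgas-/- replicate 2, P301S Cgas+/+ replicate 1 or P301S Cgas-/- replicate 2 was the one and 145 when it was P301S Cgas+/- replicate 6. The contrast of P301S Cgas+/+ with Cgas+/+ gave 13 calls with DESeq2, 107 without the filter, 97 on those groups alone, 1 with DESeq2 on the stricter nuclei and 0 to 20 leaving out 1 mouse. For P301S Cgas-/- these were 1 without the filter, 2 on the groups alone, 1 with DESeq2 on the stricter nuclei and 0 leaving out 1 mouse, and for P301S Cgas+/- 3 without the filter. Sex gave 32 without the filter, 4 without doublet-marked nuclei, 16 with DESeq2 on the stricter nuclei and 6 to 10 leaving out 1 mouse.

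The P301S difference in share was -0.163 at 1000 UMIs per nucleus (exact permutation p = 0.0439, adjusted 0.176) and -0.154 with at least 4 genes. Without nuclei holding UMIs of other cell types it was -0.238 (exact permutation p = 0.0141, adjusted 0.0565). That setting removed on average 23.4% of the selected nuclei in P301S and 10.9% in tau-free mice. With 1 mouse left out the difference ran from -0.229 to -0.134 (exact permutation p = 0.0283 without P301S Cgas-/- replicate 2). Leaving out 1 mouse, the share difference ran from -0.137 to 0.00810 (P301S Cgas+/+ against Cgas+/+), 0.0278 to 0.223 (P301S Cgas-/-) and -0.0918 to 0.0533 (P301S Cgas+/-), and the log2 ratio to endothelial nuclei from -0.0695 to 0.314, -0.0356 to 0.297, -0.445 to -0.180 (exact permutation p = 0.00866 at -0.445, without P301S Cgas+/+ replicate 4) and, pooled, -0.178 to 0.0468. Directions also turned for the share in version 3.0.2 alone (0.179) and without doublet-marked nuclei (0.0278; both P301S Cgas+/+ against Cgas+/+) and in 3.1.0 alone (0.0690, P301S Cgas+/-), and for the ratio with at least 4 genes (-0.127), without nuclei holding UMIs of other cell types (-0.180) and in 3.1.0 alone (-0.0131) for P301S Cgas+/+ against Cgas+/+, and in 3.0.2 alone for P301S Cgas-/- (-0.468). Without doublet-marked nuclei the ratio differed by -0.531 (P301S Cgas+/+ against Cgas+/+), -0.468 (P301S Cgas-/-) and 0.165 (P301S Cgas+/-). The cause of these changes was not tested. Of 1605 values under alternatives 1365 kept their direction and side of the threshold or, for counts of called genes, stayed near the main count. These values include contrasts with 0 calls and uncalled genes, so this share does not measure stability. Depth limits rare transcripts: interferon genes could not be tested in the stricter nuclei.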
